A study of Homo sapiens with 4 samples.

Results

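The 10 genes described here code for chaperones of the HSP70 and HSP110 families: HSPA1A, HSPA1B, HSPA2, HSPA4, HSPA4L, HSPA8, HSPA9, HSPA13, HSPA14 and HSPH1. They were taken by name from the 63856 genes of a count table on 4 RNA-seq libraries. No cut on measured values was used, but earlier results of these data were known. The cells were MCF10A, a human breast epithelial line that does not form tumours. There were 2 libraries of wild type (WT) cells and 2 of cells carrying HSF1 cDNA in the lentiviral vector pLVX-Puro under puromycin selection, called HSF1-pLVX below, and both groups were grown in the same serum- and EGF-containing medium with no heat shock named. Of the 10 genes, 8 passed the filter on low counts and were tested, and HSPA1A and HSPA1B did not. No library of cells with the empty vector was analysed here, so the vector and the selection cannot be told apart from HSF1 itself. The labels name replicates by number only. The paper calls them biological replicates, but how far their cultures were separate is not stated. The p-values measure the spread between these libraries.

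HSP70 proteins bind short hydrophobic stretches of unfolded proteins and release them in a cycle of ATP binding and hydrolysis. J-domain proteins deliver clients and start hydrolysis, and nucleotide exchange factors reset the cycle. The HSP110 proteins HSPH1, HSPA4 and HSPA4L are distant relatives of HSP70 that serve as its exchange factors. HSF1 is the transcription factor that binds heat shock elements, inverted repeats of the unit GAA, in front of the stress-inducible members. In epithelial cells at normal temperature, HSPA8 is the constitutive cytosolic HSP70, HSPA9 works in the mitochondrial matrix, and HSPA1A and HSPA1B are the classic inducible pair.

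The promoter windows of the members are shown because the study changed the level of the factor that reads heat shock elements. RefSeq (GRCh38.p14) windows, running from 250 bases before to 50 bases after a gene's start, were found for 9 of the 10 members, 11 windows in all, and HSPA14 had none in the table. They are written 5′ to 3′ on the gene's strand, with each match to the forms GAANNTTC and TTCNNGAA in capitals. Both forms read the same on both strands and they overlap within a longer element. The windows are HSPA8 at chr11:123062087-123062386 (minus strand), HSPA1A at chr6:31815293-31815592 (plus), HSPA1B at chr6:31827488-31827787 (plus), HSPA9 at chr5:138575352-138575651 (minus), HSPA4L at chr4:127782072-127782371 (plus, the middle of its 3 windows) and HSPH1 at chr13:31162339-31162638 (minus).
HSPA8: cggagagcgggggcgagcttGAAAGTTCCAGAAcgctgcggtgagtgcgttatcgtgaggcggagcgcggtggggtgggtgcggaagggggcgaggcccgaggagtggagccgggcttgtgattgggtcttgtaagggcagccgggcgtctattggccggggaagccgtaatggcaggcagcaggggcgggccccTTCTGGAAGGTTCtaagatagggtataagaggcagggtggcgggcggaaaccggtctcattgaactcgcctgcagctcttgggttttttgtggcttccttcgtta
HSPA1A: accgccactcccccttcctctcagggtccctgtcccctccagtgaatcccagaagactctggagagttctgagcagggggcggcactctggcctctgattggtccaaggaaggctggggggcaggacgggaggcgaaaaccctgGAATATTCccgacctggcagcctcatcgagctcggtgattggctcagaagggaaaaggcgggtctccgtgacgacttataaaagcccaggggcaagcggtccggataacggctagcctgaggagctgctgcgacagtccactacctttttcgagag
HSPA1B: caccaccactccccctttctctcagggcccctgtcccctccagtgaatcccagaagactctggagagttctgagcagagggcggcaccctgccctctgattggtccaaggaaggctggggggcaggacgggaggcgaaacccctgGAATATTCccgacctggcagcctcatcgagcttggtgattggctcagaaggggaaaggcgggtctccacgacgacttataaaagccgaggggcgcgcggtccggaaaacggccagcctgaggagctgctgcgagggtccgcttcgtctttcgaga
HSPA9: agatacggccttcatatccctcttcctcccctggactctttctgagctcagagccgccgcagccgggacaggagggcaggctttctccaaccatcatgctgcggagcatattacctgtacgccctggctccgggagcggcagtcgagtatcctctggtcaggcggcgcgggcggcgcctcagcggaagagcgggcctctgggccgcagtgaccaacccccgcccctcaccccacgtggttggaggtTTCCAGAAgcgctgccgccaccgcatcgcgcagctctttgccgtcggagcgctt
HSPA4L: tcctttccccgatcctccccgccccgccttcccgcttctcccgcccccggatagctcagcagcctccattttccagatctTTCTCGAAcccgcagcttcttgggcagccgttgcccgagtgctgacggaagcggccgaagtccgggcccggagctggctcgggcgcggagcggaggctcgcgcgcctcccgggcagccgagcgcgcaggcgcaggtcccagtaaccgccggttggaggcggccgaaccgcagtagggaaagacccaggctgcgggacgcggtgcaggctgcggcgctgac
HSPH1: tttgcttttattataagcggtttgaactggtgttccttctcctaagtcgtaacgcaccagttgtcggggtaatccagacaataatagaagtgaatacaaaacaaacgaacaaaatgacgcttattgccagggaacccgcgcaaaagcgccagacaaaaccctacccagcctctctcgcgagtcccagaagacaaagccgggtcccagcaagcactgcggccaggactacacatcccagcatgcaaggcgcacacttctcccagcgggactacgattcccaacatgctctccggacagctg

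Of the 9 members with a window, HSPA8 alone held the 13-letter form, GAANNTTC extended by NNGAA, which was searched on both strands. It held the form in 2 places, GAAAGTTCCAGAA from 230 to 218 bases before the start and TTCTGGAAGGTTC, the reverse complement form, from 55 to 43 bases before it. This form was present in 172 of 35116 windows in the table, or 0.49%. The HSPA1A and HSPA1B windows each held GAATATTC, from 106 to 99 and from 105 to 98 bases before the start, and were identical at 277 of 301 aligned positions. The HSPA9 window held TTCCAGAA across the start itself, from 4 bases before it to base 4 of the transcript. The middle HSPA4L window held TTCTCGAA from 170 to 163 bases before its start, and the HSPA4L windows on either side held no match. At least 1 of the 8-letter forms was present in 13.5% of all windows. Counted by gene, such a form was present in 5 of the 9 members with a window and in 4417 of all 27305 genes. The windows of HSPA2, HSPA4, HSPA13 and HSPH1 held none of these letters. A match is a description of the sequence, and these windows cover a small part of each gene's surroundings.

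HSF1 itself checked the labels. Its level in CPM (counts scaled to a common library size with TMM factors) was 200.4 and 189.2 in the WT libraries and 982.4 and 998.6 in the HSF1-pLVX libraries. The log2 fold change was 2.35 ± 0.0999 (SE, n = 2 against 2; edgeR quasi-likelihood test with Benjamini-Hochberg adjusted p = 1.145e-10). Reads of the cDNA and of the resident gene were not separated. Total counts per library ran from 18688109 to 24184285, and 3 counts, taken as the most that a gene listed at 0 could hide, correspond to between 0.1195 and 0.1615 CPM. This floor covers counting error only.

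Of the 8 members tested, 4 were up-regulated in HSF1-pLVX cells (HSPA4L, HSPA9, HSPA14 and HSPH1), none was down-regulated, and 4 did not pass the test (HSPA8, HSPA4, HSPA13 and HSPA2). A call needed an adjusted p under 0.05 over all 15830 genes tested by edgeR. The count of members lower was also 0 at an unadjusted p under 0.05 and with DESeq2's Wald test. The comparison called much of the transcriptome, 32.7% of tested genes higher and 33.2% lower, so 4 of 8 members is to be read against that background. Both HSPA4L and HSPA9 rose at least 2-fold, as did 14.9% of tested genes. The median log2 fold change was 0.46 over the 8 members and 0.02 over all tested genes. The WT and HSF1-pLVX libraries did not overlap for 6 of the 8 members, and for 83.1% of all tested genes. Fewer cells that express a gene and less of its RNA per cell cannot be told apart in bulk libraries. With 2 libraries against 2, an exact two-sided permutation test of a single gene cannot go below p = 0.33, and the calls rest on a spread estimated across all genes.

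**Figure D1:**
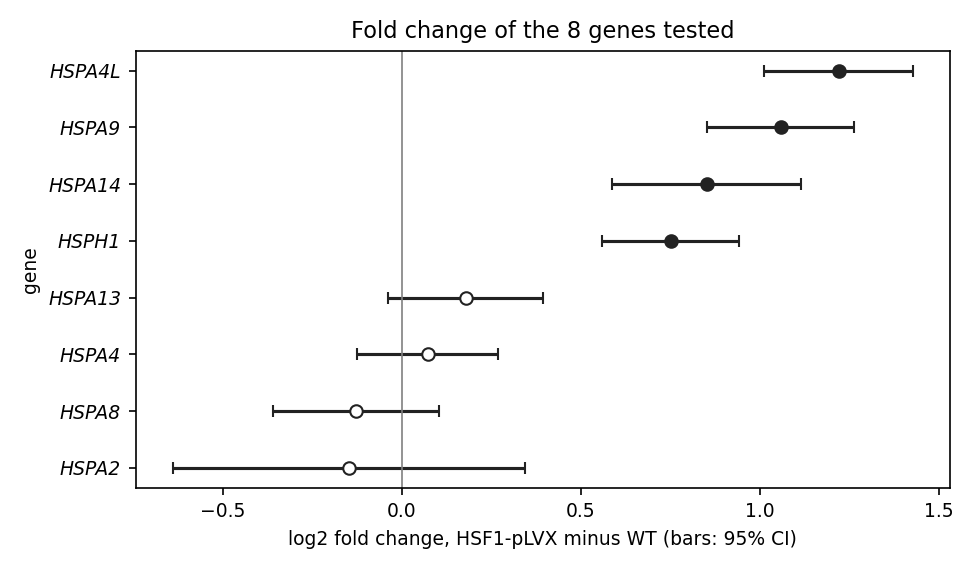
Log2 fold change (HSF1-pLVX minus WT, horizontal axis) of the 8 members tested, with 95% confidence intervals from the edgeR fit; filled points passed an adjusted p of 0.05 and open points did not. HSPA4L, HSPA9, HSPA14 and HSPH1 lie between 0.75 and 1.22 with intervals above 0, and the intervals of the other members cover 0.

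The cytosolic HSP70 with the highest level did not pass the test. HSPA8 (ENSG00000109971.13, chromosome 11, 123057489 to 123063230, minus strand), which folds newly made proteins and strips clathrin from vesicles, had 2153 and 1935 CPM in WT and 1864 and 1875 CPM in HSF1-pLVX cells. Both HSF1-pLVX libraries lay below both WT libraries, but the WT libraries differed from each other by more than the gap between the groups. The log2 fold change was -0.13 ± 0.108 (SE), with a 95% confidence interval from -0.36 to 0.10 (edgeR, adjusted p = 0.3095). It ranked 45th by level among the genes tested. The 17 HSPA8 pseudogenes that the table lists by name held between 0.047 and 0.0834% as many counts as HSPA8. HSPA2 (ENSG00000126803.9, chromosome 14, 64535905 to 64546173, plus strand), a relative best known from spermatogenesis, had a low level and ranked 11440th among the 15830 genes tested. It had 72 and 57 counts in WT and 85 and 56 in HSF1-pLVX libraries, or 3.836, 3.068, 3.386 and 2.819 CPM, and the groups overlapped. Its log2 fold change of -0.15 had an interval from -0.64 to 0.35 (edgeR, adjusted p = 0.5911), so a change of that size in either direction was not detectable at this depth.

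**Figure D2:**
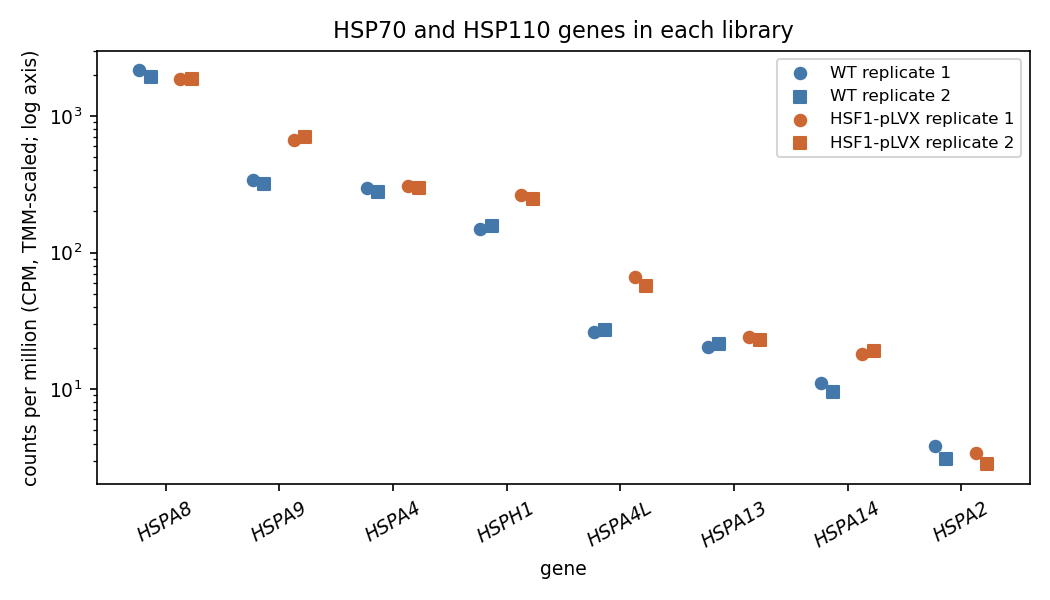
Level of each tested member in each library, in TMM-scaled CPM on a log axis; blue points are WT and orange points HSF1-pLVX libraries, circles replicate 1 and squares replicate 2. HSPA8 stands highest in all libraries, at 1864 to 2153 CPM. The 2 orange points of HSPA9, HSPH1, HSPA4L and HSPA14 lie above both blue ones, as do those of HSPA13, which did not pass the test. HSPA1A and HSPA1B, at 0 counts, are not drawn.

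HSPA9 (ENSG00000113013.12, chromosome 5, 138554882 to 138575444, minus strand), known as mortalin, pulls proteins into the mitochondrial matrix and helps build iron-sulfur clusters there. It had 341 and 317.3 CPM in WT and 668.3 and 702.2 CPM in HSF1-pLVX cells. The groups were far apart compared with the distance between libraries of a group. The log2 fold change was 1.06 ± 0.096 (SE; interval 0.85 to 1.26; edgeR, adjusted p = 2.56e-07), and 13.9% of tested genes rose more. HSPA9 is the member whose window held an 8-letter match across its start. Relative to HSPA8, per 100 units of RPKM (counts scaled for library size and gene length), HSPA9 stood at 16.17 and 16.74 in WT and at 36.6 and 38.22 in HSF1-pLVX cells.

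The HSP110 genes split. HSPA4L (ENSG00000164070.11, chromosome 4, 127781821 to 127840733, plus strand), also called APG-1, had the largest rise of the 8 members tested, from 26 and 26.91 CPM in WT to 66 and 57.08 CPM in HSF1-pLVX cells. The HSF1-pLVX libraries differed from each other more than the WT ones did, but both stood clear of WT. Its log2 fold change was 1.22 ± 0.0967 (SE; interval 1.012 to 1.427; edgeR, adjusted p = 6.05e-08). HSPH1 (ENSG00000120694.19, chromosome 13, 31134974 to 31162388, minus strand), the heat-inducible HSP105, had 148.4 and 155.5 CPM in WT and 263.7 and 247.5 CPM in HSF1-pLVX cells. It rose by a log2 fold change of 0.75 ± 0.089 (SE; interval 0.56 to 0.94; edgeR, adjusted p = 3.98e-06). Its window above held no match to the heat shock forms searched. HSPA4 (ENSG00000170606.14, chromosome 5, 133051962 to 133106449, plus strand), known as APG-2, had 298.4 and 276 CPM in WT and 308.5 and 295.3 CPM in HSF1-pLVX cells, with overlapping groups. Its log2 fold change of 0.07 had an interval from -0.12 to 0.27 (edgeR, adjusted p = 0.5046), which lies below the intervals of both HSPA4L and HSPH1.

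With the gene lengths used, HSPA4 remained the most abundant HSP110 gene in every library, as it was in CPM. These lengths were 5153 bases for HSPA4, 8390 for HSPH1 and 11621 for HSPA4L. They cover all annotated exons, so shares and ratios between genes depend on them, and the lengths of the transcripts present were not measured. Its share of the summed RPKM of the HSP110 genes was 74.4 and 71.99% in WT and 61.74 and 62.48% in HSF1-pLVX cells. The HSPH1 share was 22.72 and 24.9% in WT and 32.41 and 32.16% in HSF1-pLVX cells, and the HSPA4L share stayed below 6% in every library. Their summed level per 100 units of HSPA8, a ratio of exchange factor to chaperone RNA, was 17.53 and 18.65 in WT and 25.23 and 23.71 in HSF1-pLVX cells. These ratios were not tested, and the groups did not overlap for any of them.

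HSPA14 and HSPA13 are the small, divergent members. HSPA14 (ENSG00000187522.14, chromosome 10, 14838164 to 14871741, plus strand) sits at the ribosome with the J-domain protein DNAJC2. It had 11.08 and 9.472 CPM in WT and 18.2 and 18.93 CPM in HSF1-pLVX cells. The rise was a log2 fold change of 0.85 ± 0.123 (SE; interval 0.59 to 1.12; edgeR, adjusted p = 2.73e-05). Its annotation shares 1992 of 4287 exon bases with MSANTD7 on the same strand, so its reads could be split by the counting, and MSANTD7 had 38, 38, 46 and 29 counts in WT 1, WT 2, HSF1-pLVX 1 and HSF1-pLVX 2. DNAJC2 rose too, with a log2 fold change of 0.63 (edgeR, adjusted p = 5.382e-05). HSPA13 (ENSG00000155304.5, chromosome 21, 14371115 to 14383484, minus strand), a truncated member of the microsomes, had 20.19 and 21.31 CPM in WT and 24.14 and 22.8 CPM in HSF1-pLVX cells. The groups did not overlap, yet the log2 fold change of 0.18 had an interval from -0.04 to 0.40 (edgeR, adjusted p = 0.1336).

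No call among the 8 members changed when any 1 library was left out. The log2 fold changes then ran from 1.11 to 1.33 for HSPA4L, from 0.99 to 1.125 for HSPA9, from 0.73 to 0.98 for HSPA14 and from 0.71 to 0.81 for HSPH1. Under the rule the study used, a ratio of the normalized values above 2 or below 0.5 within both replicate numbers, HSPA4L passed with ratios of 2.413 and 2.073, and 5.00% of all rows passed upward. HSPA9 missed it with 1.895 and 2.194, as did HSPA14 with 1.55 and 1.905 and HSPH1 with 1.717 and 1.578. None of the members passed downward, against 6.42% of all rows.

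Summed over the members with counts, the level per length changed little, while its make-up moved. The summed RPKM was 601.6 and 548.1 in WT and 632.6 and 636.7 in HSF1-pLVX cells, a ratio of means of 1.104, or 1.151 when scaled by library size only. HSPA8 made up 73.79 and 72.81% of the sum in WT and 60.76 and 60.75% in HSF1-pLVX cells. HSPA9 made up 11.93 and 12.19% in WT and 22.24 and 23.22% in HSF1-pLVX cells. HSPA4 took between 9.002 and 9.774% in the 4 libraries, and HSPA2, HSPA13, HSPA14 and HSPA4L each took under 1% in every library. HSPA1A and HSPA1B, at 0 counts, add nothing to these sums.

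**Figure D3:**
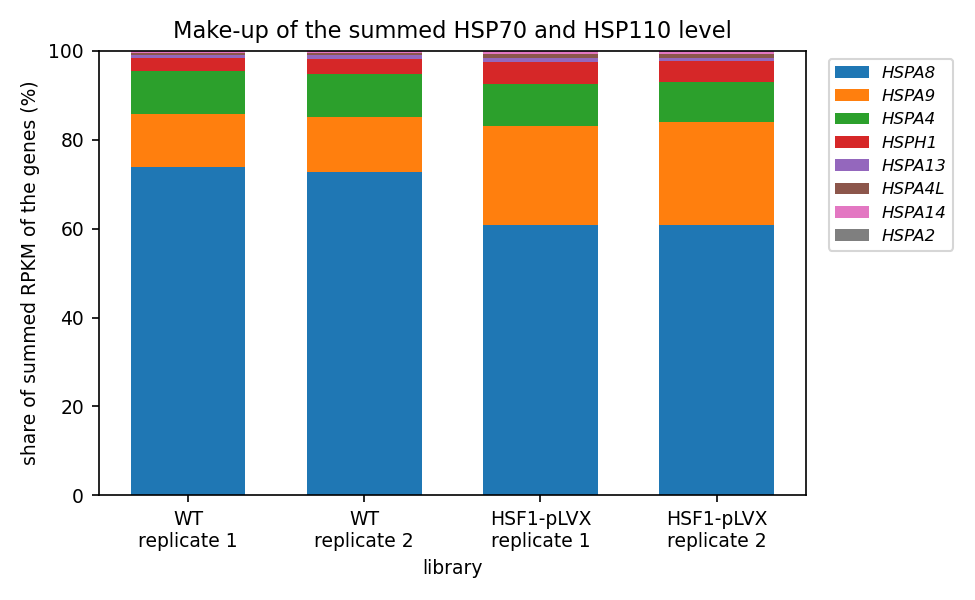
Share (%) of each member with counts in the summed RPKM of those members, 1 stacked bar per library. The HSPA8 part is larger in the WT bars (73.79 and 72.81%) than in the HSF1-pLVX bars (60.76 and 60.75%), and the HSPA9 part is smaller (11.93 and 12.19% against 22.24 and 23.22%).

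HSPA1A (ENSG00000204389.9, chromosome 6, 31815464 to 31817946, plus strand) and HSPA1B (ENSG00000204388.6, chromosome 6, 31827735 to 31830255, plus strand) had 0 counts in all 4 libraries, and so did their sum. The genes lie in the major histocompatibility complex, a region that the reference genome also carries as alternate sequences. To see how much of each gene a read could be placed in, every run of 76 bases, the read length, was looked up in the reference on both strands. Of the 2408 such windows in HSPA1A, 28.8% occurred once on the 25 main chromosomes, and of the 2446 in HSPA1B, 29.9%. In all, 71.2% of the HSPA1A windows were also present in HSPA1B. With the other 430 sequences of the reference included, 0% of the windows of either gene occurred once, and the median window occurred 10 times. For the other 8 members, between 97.3 and 100% of windows occurred once. How the authors' counting treated reads with several matches is not given in the sources used here, and its part in the 0 counts was not tested.

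Of the 113 genes within 500 kb of the pair, 110 (97.3%) had at most 3 counts in every library, as did 42290 of all 63856 genes in the count table (66.2%). Over the 97 genes of the lists used here, 6 had under 10% of windows occurring once, and 5 of these were at 3 counts or fewer in every library. They are HSPA1A, HSPA1B, HSPA1L, BAG6 and DNAJA3, and the sixth, PAM16, reached 8 counts. Among the other 91 genes, 8 were at 3 counts or fewer. One of these was HYOU1, the HSP110-like chaperone of the endoplasmic reticulum, with 1, 1, 0 and 0 counts although 100% of its windows occurred once.

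The normalized table lists HSPA1A and HSPA1B on 5 rows each, and the counts behind its rows could be recovered. Summed over these 10 rows, HSPA1A plus HSPA1B had 19 and 15 counts in the WT libraries and 20 and 16 in the HSF1-pLVX libraries. The 70 counts equal 0.0436% of those of HSPA8. The fitted log2 fold change of this sum was -0.18 (edgeR, adjusted p = 0.6624). Over the settings with all 4 libraries, the adjusted p ran from 0.6409 (edgeR with DESeq2's size factors) to 0.8233 (DESeq2's Wald test). These files therefore give no usable level for the inducible pair in either group.

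**Figure D4:**
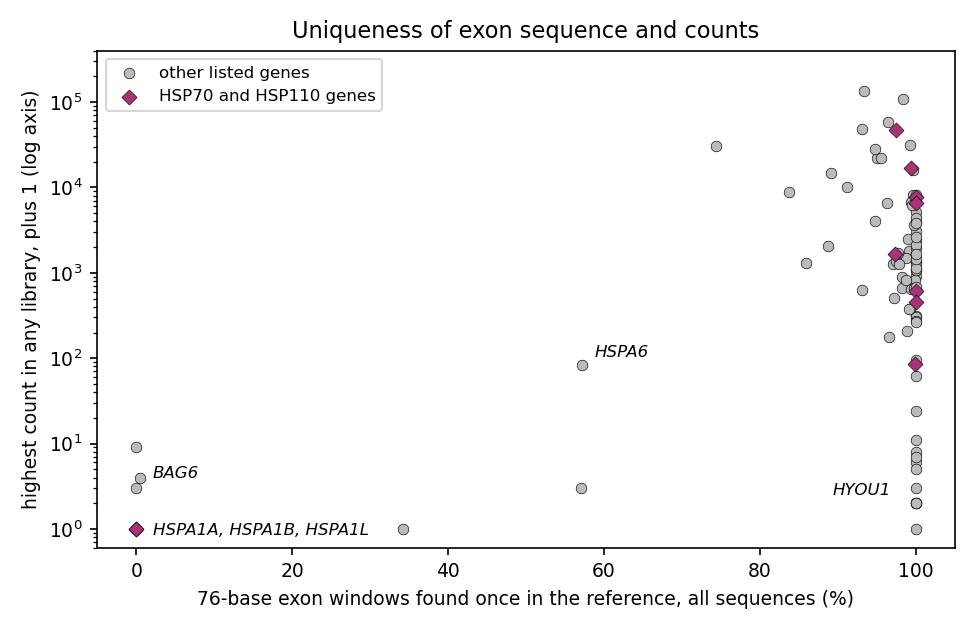
Share of 76-base exon windows that occur once in the whole reference (horizontal axis, %) against the highest count in any library plus 1 (vertical axis, log scale) for the 97 genes of the lists; diamonds are the HSP70 and HSP110 genes. HSPA1A and HSPA1B lie at 0% and 0 counts, and the other members lie at 97.3% or above.

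Of the 7 other HSP70 superfamily genes, 3 were tested, of which 2 rose and 1 fell. HSPA5, the HSP70 of the endoplasmic reticulum known as BiP, went the other way from HSPA9, from 1166 and 1055 CPM in WT to 661.2 and 671.5 CPM in HSF1-pLVX cells. Its log2 fold change was -0.74 ± 0.101 (SE; edgeR, adjusted p = 1.71e-05), and the ratio of HSPA8 to HSPA5 in RPKM was 1.488 and 1.478 in WT and 2.272 and 2.251 in HSF1-pLVX cells. HSPA12A, a distant relative, rose from 3.889 and 3.606 to 12.39 and 11.88 CPM, a log2 fold change of 1.69 (edgeR, adjusted p = 2.7e-07). HSPA6, the strictly heat-inducible HSP70, had 51 and 30 counts in WT and 82 and 76 in HSF1-pLVX libraries and a log2 fold change of 0.70 (edgeR, adjusted p = 0.0331). That call was lost with DESeq2's test and when WT replicate 2 or either HSF1-pLVX library was left out, and 57.2% of HSPA6 windows occurred once. HSPA7, HSPA12B and HSPA1L had at most 5 counts in any library. HYOU1 was not tested, and its second row in the normalized table held 257 counts in WT replicate 1 against 19, 14 and 11 in the others.

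Of 11 exchange factors and regulators outside the HSP110 family, 10 were tested, and 3 rose, 4 fell and 3 did not pass the test, with a median log2 fold change of -0.10. These counts were near the background, 32.7% of all tested genes called higher and 33.2% lower. BAG2, an exchange factor that also restrains the ligase STUB1, had the largest rise, from 4.635 and 5.221 to 14.98 and 13.39 CPM, a log2 fold change of 1.53 (edgeR, adjusted p = 4.58e-07). ST13, the HSP70-interacting protein HIP, rose by a log2 fold change of 0.90, and STIP1, which bridges HSP70 and HSP90, by 0.25. The STIP1 call (edgeR, adjusted p = 0.03024) was lost with DESeq2's size factors (0.05313), with no filter (0.06396), with the replicate block (0.06067) and without any 1 library other than WT replicate 1. BAG1 fell by 0.63, the ligase STUB1 by 0.59, BAG5 by 0.38 and SIL1, the exchange factor of HSPA5, by 0.29 on the log2 scale. BAG3, a well-known HSF1 target, had 229.9 CPM in WT and 207.4 CPM in HSF1-pLVX cells as means and did not pass the test (edgeR, adjusted p = 0.1449). BAG6 had 3 counts or fewer in every library.

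Of 17 J-domain partners, 16 were tested, and 3 rose, 10 fell and 3 did not pass, with a median log2 fold change of -0.305. Over all tested genes, 32.7% were called higher and 33.2% lower. DNAJC6, the auxilin that recruits HSPA8 to clathrin coats, fell from 57 and 57.97 to 7.05 and 6.141 CPM, a log2 fold change of -3.12 (edgeR, adjusted p = 2.118e-11). DNAJB4, a cytosolic partner of HSPA8, fell by 2.25, DNAJB6, which holds back aggregation, by 1.04 and DNAJB2 by 0.75 on the log2 scale. DNAJB5 rose by a log2 fold change of 0.95, DNAJC2 by 0.63 and DNAJC7 by 0.27. One of the 10 falls, DNAJA2 (edgeR, adjusted p = 0.04989), was lost with library size only, no filter, DESeq2's Wald test, the replicate block and each library left out. Without HSF1-pLVX replicate 2, 5 falls were called, against 23.2% of all genes tested in that fit.

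Of 16 mitochondrial partners of HSPA9, 13 were tested, and 8 rose, 2 fell and 3 did not pass, with a median log2 fold change of 0.32, where 32.7% of all tested genes were called higher and 33.2% lower. The largest rises were those of the iron-sulfur cluster genes NFS1 (log2 fold change 0.84) and HSCB (0.76), of TIMM44, which anchors HSPA9 at the import channel (0.59), and of the exchange factor GRPEL2 (0.58). GRPEL1, the main mitochondrial exchange factor, had 24.66 CPM in WT and 25.66 CPM in HSF1-pLVX cells as means and did not pass (edgeR, adjusted p = 0.6078). DNAJC15, a J-domain protein of the inner membrane, fell by 0.41 and TIMM23, the import channel, by 0.26 on the log2 scale. DNAJA3 had 2 counts or fewer in every library. Without HSF1-pLVX replicate 2, 5 rises and 1 fall were called, against 22.8 and 23.2% of all genes tested in that fit.

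Of 16 other heat shock response genes, 10 rose, 4 fell and 2 did not pass, against 32.7% called higher and 33.2% lower over all tested genes, and the median log2 fold change was 0.44. HSPD1 and HSPE1, the mitochondrial chaperonin and its lid, rose with HSPA9. HSPD1 went from 171.1 and 167 to 591.3 and 615.3 CPM, a log2 fold change of 1.84 (edgeR, adjusted p = 6.971e-10), and HSPE1 rose by 1.23. HSPD1 per 100 units of HSPA9 in RPKM was 56.14 and 58.9 in WT and 99.03 and 98.06 in HSF1-pLVX cells. SERPINH1, the collagen chaperone, rose by 1.06 and the small heat shock protein gene CRYAB by 0.72. HSPB8, another small heat shock protein gene, fell by 1.71, the inducible HSP90AA1 by 0.65 and the ubiquitin gene UBB by 0.33 on the log2 scale.

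**Figure D5:**
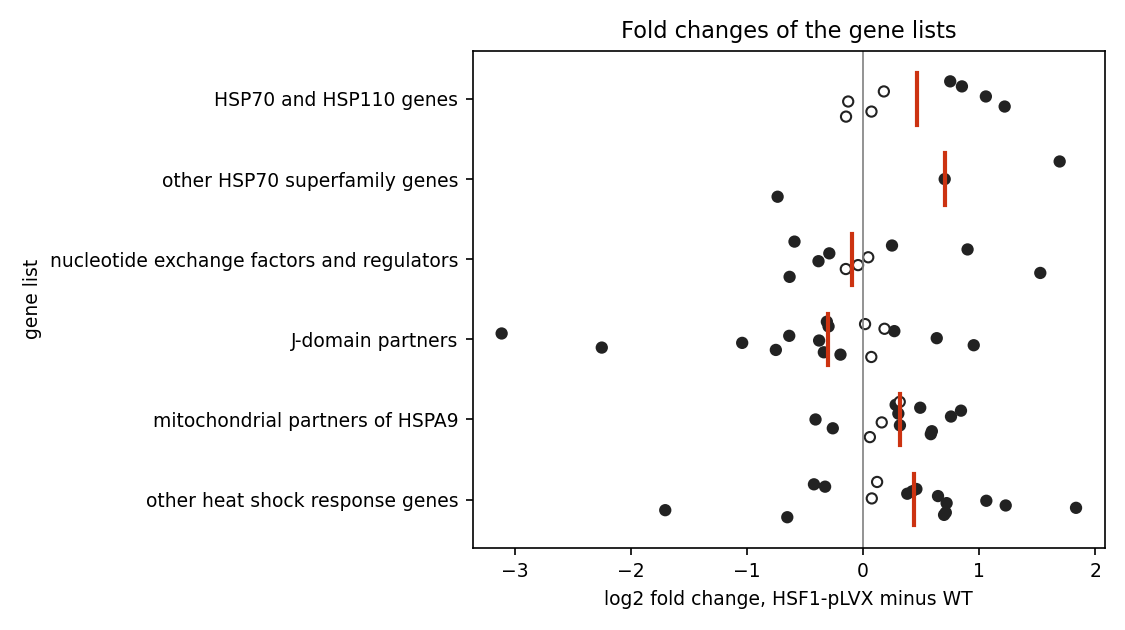
Log2 fold change (HSF1-pLVX minus WT) of every tested gene in 6 lists, 1 point per gene; filled points passed an adjusted p of 0.05, open points did not, and red bars are medians. The medians are 0.46 for the HSP70 and HSP110 genes, -0.305 for J-domain partners and 0.32 for the mitochondrial partners of HSPA9.

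The cells differed in more than chaperones, which stands beside each of these counts. All 8 epithelial markers were detected in every library, but their summed level was 15690 to 15700 CPM in WT and 6962 to 7408 CPM in HSF1-pLVX cells. Of the 8, 6 fell, led by KRT14 (log2 fold change -3.55), KRT8 (-3.24), KRT17 (-2.56) and KRT18 (-1.73), and 2 rose, TP63 (3.48) and KRT5 (1.12). Genes of basal cells stood on both sides, KRT14 and KRT17 among the falls and TP63 and KRT5 as the rises. Of 8 fibroblast markers, 2 were tested. DCN rose, from 1 and 3 counts in WT to 94 and 87 in HSF1-pLVX libraries, or 0.1074 and 4.062 CPM as means. COL1A1 had a log2 fold change of 0.19 and did not pass the test (edgeR, adjusted p = 0.3531). COL1A2, COL3A1, LUM and THY1 were at 2 counts or fewer in every library. PDGFRA had 6 and 4 counts in WT and 1 count in each HSF1-pLVX library. PDGFRB had 2 and 0 counts in WT and 10 and 5 in HSF1-pLVX libraries, and neither gene was tested. The summed level of the list was 7.884 to 10.87 CPM in WT and 13.94 to 15.02 CPM in HSF1-pLVX cells. ESR1 rose by a log2 fold change of 1.65 at a low level, from 59 and 48 counts in WT to 263 and 148 in HSF1-pLVX libraries. Its mean RPKM was 0.2101 in WT and 0.6576 in HSF1-pLVX cells. PGR and the leukocyte gene PTPRC were at 0 counts in every library, and the endothelial gene PECAM1 had between 1 and 23 counts. The part of these differences in the chaperone results was not tested.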

How the data were processed

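Total RNA of 4 MCF10A libraries was sequenced as paired 76-base reads after ribosomal RNA removal. The authors deposited raw counts per gene (GENCODE release 26, hg38) and a second table of normalized values on a log2-like scale; the submitters' processing notes name HISAT2 2.0.5, SAMtools 1.13, featureCounts 1.6.5 and DESeq2 1.32.0. Strand and multi-mapping settings are not given in the sources used here. A blind variance-stabilizing transformation of the counts returned all 22321 rows of the deposited log2 table within 0.001, and its inverse gave the count behind rows that carry only a symbol. Of the counted genes, 5637 lie outside the main chromosomes.

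The test was that of edgeR 4.0.16, run in R 4.3.3 on the deposited counts (TMM, filterByExpr, quasi-likelihood, HSF1-pLVX minus WT, no block), with Benjamini-Hochberg adjustment over 15830 genes. RPKM used the deposited gene lengths, which cover all annotated exons of a gene, so levels of different genes compared in RPKM depend on them. DESeq2 1.42.0, other scalings, no filter, a replicate block and each library left out were the alternatives. Replicates of a group differed beyond sampling noise (chi-square per degree of freedom 6.995 for WT and 8.907 for HSF1-pLVX). The fit was tested on simulated data. The simulated counts changed far fewer genes than were called here and gave all genes the same dispersion.

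The members and gene lists were chosen with earlier results of these data known. Named were all members, HSF1, the other HSP70 superfamily genes and, per list, up to 4 called genes with the largest change in each direction and genes at 3 counts or fewer in all libraries of a group. BAG3, GRPEL1, MSANTD7, PAM16, DNAJA2, COL1A1 and PECAM1 fall outside this rule and were chosen after their values were seen. The values of 1 gene that the rule names are not reported here. The planned fit of HSPA1A plus HSPA1B had no counts to use, and identity between the proteins was not analysed here.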

Additional observations from a re-analysis of the deposited data

How the results depend on the processing

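The calls on the 8 tested members (4 higher, 0 lower) were the same under every alternative run: DESeq2's size factors, library size only, no filter on low counts, DESeq2's Wald test, the replicate block and each library left out. Over the alternatives with all libraries and the deposited normalized values, the log2 fold change was 1.16 to 1.28 for HSPA4L and 1.03 to 1.12 for HSPA9. It was 0.78 to 0.91 for HSPA14 and 0.72 to 0.81 for HSPH1. The lower end of each range was the difference of the deposited normalized values, which is not a fit and was not tested. Library size only moved the median of all genes from 0.02 to 0.08. Replicate numbers in the labels do not say what they share, and same-numbered libraries deviated together with a correlation of 0 over 15830 genes and -0.1133 over the 9672 genes above 8 CPM, so they were not taken as pairs. With the replicate block, HSPA4L gave 1.22, HSPA9 1.06, HSPA14 0.85 and HSPH1 0.75 on the log2 scale, with 4 members called higher and 0 lower, and 5138 genes called higher and 5171 lower in all; it changed no member's call. The crossed pairing, added after seeing the data, called 4 members higher and 0 lower, and 5429 genes higher and 5487 lower.

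Some counts in the lists of partners moved. DESeq2's Wald test called 1 of the other HSP70 superfamily genes higher, and the fits with a library left out called 1 to 2 (HSPA6 was lost). The J-domain partners called lower were 5 to 9, and the mitochondrial partners of HSPA9 called higher 5 to 7 and lower 1 to 2, with a library left out; the latter was also 1 with library size only. The lowest counts of J-domain falls and mitochondrial rises both came without HSF1 replicate 2. The counts of HSPA1A plus HSPA1B went from 0 to 70 with copies on alternate contigs added, and these copies supply all 70 counts. The cause of the other shifts was not tested. Values that never passed the test changed sign 3 times with a library left out. The log2 fold change then ran from -0.3161 to 0.0369 for HSPA2 and from -0.3533 to 0.00224 for HSPA1A plus HSPA1B, both positive without WT replicate 1, and from -0.00029 to 0.1437 for HSPA4, negative without WT replicate 2. The others, 142 with all libraries and 78 with a library left out, kept their direction and side of the threshold or, for counts of genes, stayed within 1.5 times the count reported. When a library is left out, the lone library of its group is assumed to vary like the other group.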
